A study of Mus musculus with 26 samples.

Results

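CpG islands are stretches of DNA that keep many CpG dinucleotides because they mostly stay unmethylated, and most of them sit at the starts of genes. Members of the set described here are open chromatin regions of mouse Kupffer cells that the deposited annotation places in a CpG island but not in a promoter. They were chosen as the peaks on chromosomes 1 to 19 of the inbred-strain table whose detailed annotation begins with CpG and whose main annotation is not a promoter, which gave 2731 of 94171 autosomal peaks (2.90%). The members were not, for the most part, far from promoters. The distance from the peak to the nearest annotated start was 684 bp at the median, and 1653 members (60.5%) lay within 1 kb of a start, all of them downstream of it. A further 620 members lay 1 to 10 kb away, 337 lay 10 to 50 kb away and 121 lay more than 50 kb away. They are therefore called CpG island peaks outside the annotated promoter windows.

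Open chromatin was profiled with ATAC-seq, where a transposase inserts adapters into accessible DNA. The cells were Kupffer cells, the macrophages that reside in liver sinusoids, sorted as CD146neg CD45pos F4/80hi CD11b intermediate cells. Groups were C57BL/6J after LPS (3 libraries) and C57BL/6J controls (4), BALB/cJ after LPS (2) and BALB/cJ controls (4), A/J controls (4), and CB6F1/J, the first-generation offspring of a C57BL/6J father and a BALB/cJ mother, after LPS (5) and as controls (4). These numbers follow the labels, whereas the authors' figure legend gives 2 for C57BL/6J and 3 for BALB/cJ after LPS. All mice were males 8 to 12 weeks old. The labels give an overnight fast for every group, A/J included, while the library names in the peak files of the inbred strains read fasted for LPS libraries and chow for controls, so that a difference in feeding cannot be told apart from the treatment. Livers of every group were perfused with buffer that held flavopiridol, an inhibitor of transcription elongation. The LPS groups had received 0.1 mg/kg of Escherichia coli O114:B4 lipopolysaccharide into the peritoneum 2 h earlier, and the controls had not been injected, so that the drug and the injection cannot be told apart. The labels do not say which libraries, if any, came from the same animal, so that p-values measure the spread between these libraries.

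Lipopolysaccharide, a bacterial cell wall component, is sensed by Toll-like receptor 4, and signaling from it activates NF-kB, AP-1 and interferon regulatory factors, which open many enhancers in macrophages. CpG islands are bound by CXXC-domain proteins and by factors such as SP and KLF proteins, are often nucleosome-depleted without further signals, and are marked by trimethylation of histone H3 lysine 4 where active or by Polycomb proteins where silent. Islands that start inside a first intron usually extend the open chromatin of the promoter, while islands far from any start often mark developmental genes, alternative starts or enhancers.

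The inbred libraries held 2.08 to 7.54 M tags in nuclear peaks, apart from BALB/cJ control replicate 4, which held 47.2 M tags. All 8 Kupffer cell markers examined had a peak near their start (12.6 to 144 normalized counts at the highest peak), no marker of lymphocytes or stellate cells did, and of the other cell types S100a8 of neutrophils (43.3), Ass1 of hepatocytes (11.4) and Kdr and Tek of endothelium (8.35 and 3.50) did. The LPS and the control libraries also differed in ways other than the treatment. Their tag files gave fragment lengths of 56 to 72 bases after LPS, against 34 in C57BL/6J controls and 108 to 172 in BALB/cJ and A/J controls, tag counts were whole numbers in the LPS libraries and moved in steps of 0.5 in the controls, and the library names in the peak files carried 1 date for the controls, a later one for BALB/cJ LPS and another for C57BL/6J LPS libraries. Treatment and these differences cannot be told apart. Peaks whose 1000-bp window had at least 60% G+C held 16.7 to 19.1% of the tags in C57BL/6J LPS libraries, against 22.9 to 25.0% in C57BL/6J controls, and 14.7 to 15.4% in BALB/cJ LPS libraries, against 20.8 to 23.4% in BALB/cJ controls. In bulk samples, a peak that is open in fewer cells and a peak that is less open in each cell cannot be told apart.

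Of the 2731 members, 2059 were annotated as intronic and 672 as intergenic, and none of the other annotation classes was present. The members named 2331 genes, of which 290 had 2 or more. Ptma, which encodes the nuclear protein prothymosin alpha, had 7 members, and Fos, Egr3, Klf4, Kdm6b (a histone H3 lysine 27 demethylase) and Creb3l1 had 5 each. The centers of 2080 members lay within 1000 bp of the center of another peak, so neighboring members are not independent measurements. The sequence under the members had a median of 68.7% G+C and 19 CpG, against 49.3% and 3 for all autosomal peaks. The 9072 promoter peaks with island-like bases (at least 50% G+C and a ratio of observed to expected CpG over 0.6) had 67.2% and 19, close to the members. Both sets were chosen by CpG content, so that these values describe the choice.

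Short motifs were counted on both strands. GGGCGG, the box bound by SP and KLF factors, occurred in 60.01% of members, against 68.2% of island-like promoters and 15.3% of all peaks. The core of the ETS motif CCGGAAGT occurred in 1.28% of members, against 7.79% of island-like promoters and 1.39% of all peaks, and the NRF1 motif GCGCANGCG in 4.76%, against 13.7% and 1.88%. The AP-1 motif TGACTCA occurred in 3.22% of members, against 1.72% of island-like promoters and 11.3% of all peaks, and the purine-rich GAGGAAGT bound by PU.1, the lineage factor of macrophages, in 1.68%, against 1.88% and 8.59%. A match is a description of the letters and not a binding site. CCGGAAGT and GAGGAAGT share the letters GGAAGT.

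**Figure D1:**
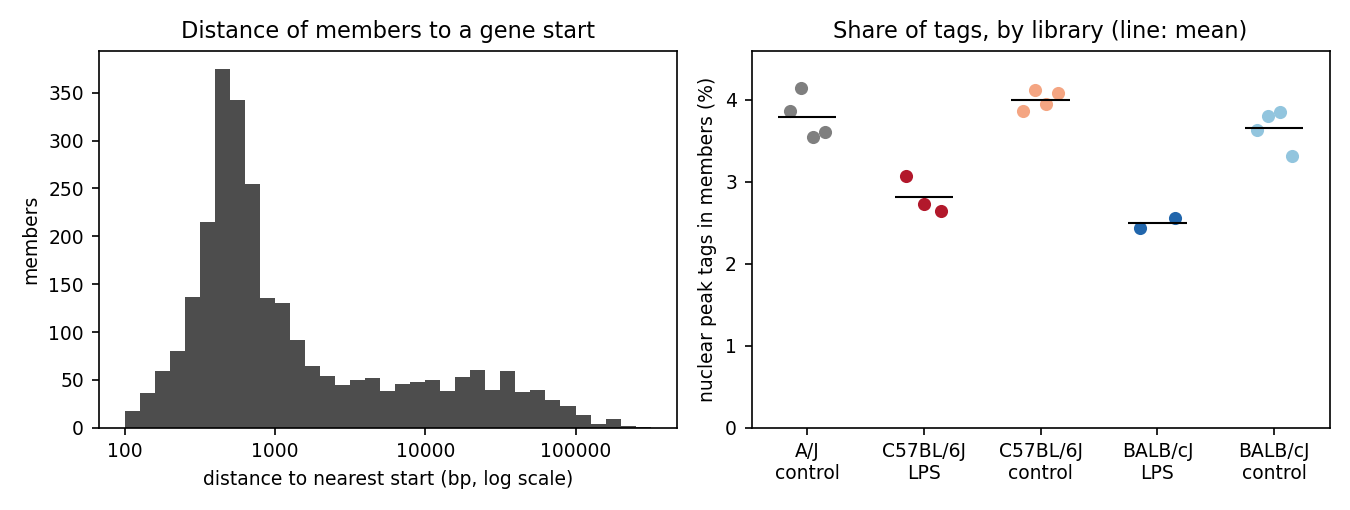
Left, histogram of the distance of the 2731 members to the nearest annotated start on a log axis in bp (y axis, number of members), with a median of 684 bp. Right, share of nuclear peak tags in the members in percent, 1 point per library and a line at each group mean, for A/J control, C57BL/6J LPS, C57BL/6J control, BALB/cJ LPS and BALB/cJ control; the C57BL/6J LPS libraries lie at 2.64 to 3.07% and the C57BL/6J controls at 3.87 to 4.12%, and the BALB/cJ LPS libraries at 2.44 to 2.55% and the BALB/cJ controls at 3.31 to 3.85%.

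A set of 6 peaks carries much of what follows and is printed as the mm10 plus strand, 5′ to 3′, with each CG in capitals so that the density of CpG can be seen. The peak in the Socs3 intron (chr11:117968477-117968677) had the largest called increase after LPS in C57BL/6J. The peak upstream of Zfp991 (chr4:145774384-145774584) had 1 of the largest decreases. It lies in a cluster of closely related copies, was not called in the hybrid and is uncertain, as described below. The peak in an intron of H2-Bl (chr17:36083455-36083655) and that in an intron of Anp32a (chr9:62363706-62363906) had the largest difference each way between C57BL/6J and BALB/cJ controls among symbols that do not end in Rik or begin with Gm or Mir, and the peaks of Kat6b (chr14:21500604-21500804) and Pnrc1 (chr4:33247652-33247852) had the highest mean signal.
Socs3: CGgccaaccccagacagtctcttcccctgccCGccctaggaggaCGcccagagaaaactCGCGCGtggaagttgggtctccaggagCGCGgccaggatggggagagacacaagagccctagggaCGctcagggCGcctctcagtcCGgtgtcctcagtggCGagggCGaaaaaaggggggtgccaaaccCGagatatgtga
Zfp991: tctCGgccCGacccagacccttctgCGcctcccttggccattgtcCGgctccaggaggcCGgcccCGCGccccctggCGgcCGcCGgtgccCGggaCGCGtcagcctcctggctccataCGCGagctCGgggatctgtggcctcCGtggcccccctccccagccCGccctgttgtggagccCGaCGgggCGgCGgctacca
H2-Bl: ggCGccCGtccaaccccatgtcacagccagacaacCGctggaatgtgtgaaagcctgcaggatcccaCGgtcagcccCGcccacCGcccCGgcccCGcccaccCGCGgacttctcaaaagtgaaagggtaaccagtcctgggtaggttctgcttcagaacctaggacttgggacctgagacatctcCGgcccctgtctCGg
Anp32a: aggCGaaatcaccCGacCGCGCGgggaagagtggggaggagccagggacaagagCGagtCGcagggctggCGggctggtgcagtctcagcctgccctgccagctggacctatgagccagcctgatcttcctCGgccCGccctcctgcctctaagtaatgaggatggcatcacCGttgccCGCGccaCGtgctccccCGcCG
Kat6b: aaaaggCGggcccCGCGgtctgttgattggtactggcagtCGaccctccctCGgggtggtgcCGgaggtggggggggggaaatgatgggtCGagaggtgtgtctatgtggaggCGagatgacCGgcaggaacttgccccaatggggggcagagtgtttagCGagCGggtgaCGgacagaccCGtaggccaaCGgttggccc
Pnrc1: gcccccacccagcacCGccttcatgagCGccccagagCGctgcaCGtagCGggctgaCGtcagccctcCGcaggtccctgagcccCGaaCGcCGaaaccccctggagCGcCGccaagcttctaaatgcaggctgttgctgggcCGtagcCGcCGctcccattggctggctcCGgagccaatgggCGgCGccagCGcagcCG
GGGCGG was found in all of these but Kat6b, in which none of the motifs searched occurred. Anp32a also held the E-box CACGTG, which occurred in 6.81% of members, against 5.16% of all peaks, and Pnrc1 the cAMP-response motif TGACGTCA, which occurred in 1.21% of members, against 0.836% of all peaks.

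The members were on average somewhat higher than other peaks, with a median of 28.2 normalized counts over the 17 inbred libraries, against 19.4 for all autosomal peaks; a normalized count is a tag count scaled to a common library size. The strongest was the peak in an intron of Kat6b, a histone acetyltransferase gene, at 608 normalized counts on average. It had 621, 552 and 572 normalized counts after LPS and 608, 637, 739 and 579.7 in controls of C57BL/6J, 505 and 469.6 after LPS and 584, 624, 695 and 684 in controls of BALB/cJ, and 529, 629, 594 and 710.5 in A/J controls. The ranges of the C57BL/6J groups overlapped. Next came Pnrc1, a nuclear receptor coactivator gene, at 530, Wnt7b at 525 with a peak 52825 bp upstream of its start, Glis2 at 485 and Csf2ra, which encodes a receptor subunit for granulocyte-macrophage colony-stimulating factor, at 475. The Csf2ra peak was the one of these 5 that was called lower after LPS, with 317, 249.6 and 177 in C57BL/6J LPS libraries, against 529.9, 565, 473 and 727 in C57BL/6J controls (log2 ratio -1.22), and 186 and 132 in BALB/cJ LPS libraries, against 440.4, 423, 852 and 345 in BALB/cJ controls (log2 ratio -1.69). The LPS and control ranges did not overlap in either strain.

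The reproducible peak lists that the authors made for each group give a second view of presence. Of the members, 1283 (47.0%) were in all 5 lists of the inbred groups, against 39.8% of all autosomal peaks. LPS lists alone held 227 (8.31%, against 11.02% of all peaks) and control lists alone 696 (25.5%, against 27.3%).

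To ask how the members responded to acute endotoxin, LPS and control libraries were compared within each inbred strain with the quasi-likelihood test of edgeR, fitted on all 96238 nuclear peaks. Calls needed a Benjamini-Hochberg adjusted p below 0.05 and more than a 2-fold change. After LPS the CpG island peaks were mostly lower. In C57BL/6J, 701 of 2689 tested members were called lower and 13 higher, and the median log2 ratio over the members was -0.70. These are 26.1% and 0.483% of the members tested, against 7.99% lower and 12.2% higher (20.2% in either direction) of all peaks, whose median was -0.03. In BALB/cJ, 756 of 2708 members (27.9%, against 11.2% of all peaks) were called lower and 38 (1.40%, against 16.1%) higher, with a median of -0.73, where 27.3% of all peaks were called in either direction. Without LPS replicate 3 the number called in C57BL/6J was 468, against 714 with it, and without LPS replicate 2 that in BALB/cJ was 482, against 794. Island-like promoters were mostly lower too (15.3% lower and 0.399% higher in C57BL/6J, with 23.9% and 1.05% for BALB/cJ), while intronic peaks outside islands and repeats were more often higher (5.29% lower and 15.0% higher in C57BL/6J, with 7.94% and 20.1% for BALB/cJ).

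The change in the members ran with their base composition. Members with 65 to 70% G+C in the 1000-bp window had a median log2 ratio of -0.94 in C57BL/6J and -0.98 in BALB/cJ, against -0.45 and -0.42 for members under 55%. Island-like promoters had medians along the same axis from -0.25 under 55% to -0.68 (C57BL/6J) and -0.89 (BALB/cJ) at 70% and over, and intronic peaks outside islands passed from 0.15 under 55% to -0.57 at 65 to 70% in C57BL/6J and from 0.14 to -0.44 in BALB/cJ. When the counts were corrected for window G+C, the number of members called lower in C57BL/6J was 265 (of all peaks, 6.04% were lower) and the number called higher 48 (11.7%). In BALB/cJ these were 273 (8.97%) and 126 (16.03%), and the median log2 ratio of the members became -0.22 in C57BL/6J and -0.14 in BALB/cJ. All 13 and 38 members called higher were also called with the correction. A shift of all G+C-rich DNA after LPS and a difference between the library preparations cannot be told apart here.

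**Figure D2:**
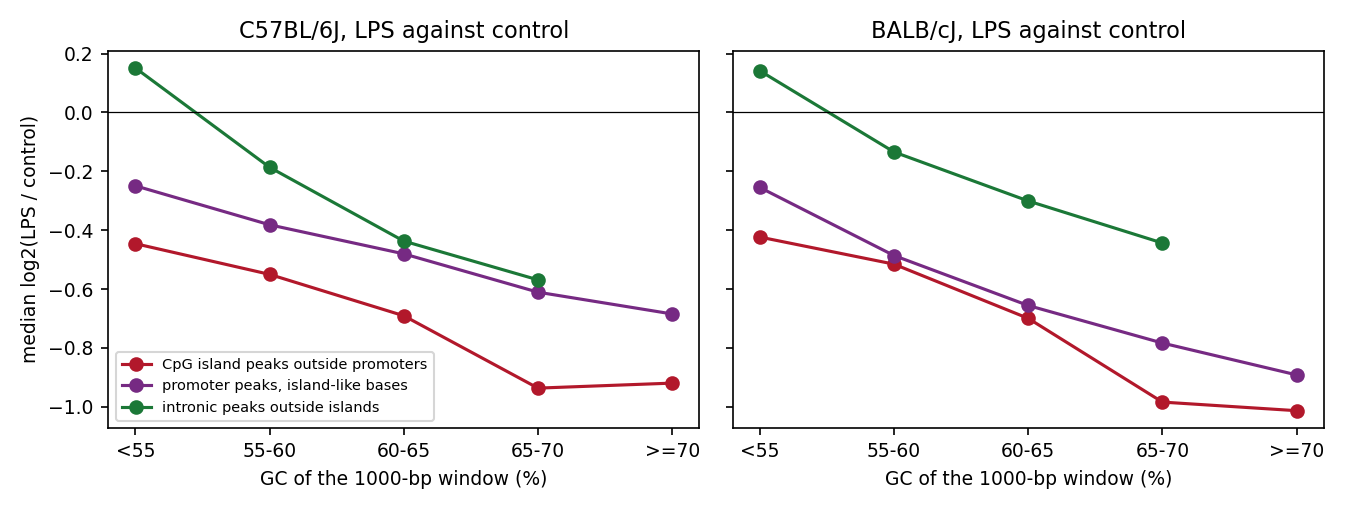
Median log2 ratio of LPS over control (y axis) in bins of window G+C percent (x axis) for the CpG island peaks, the island-like promoter peaks and the intronic peaks outside islands, in C57BL/6J and in BALB/cJ, with bins under 20 peaks left out. All 3 lines descend up to 65 to 70% G+C, where the members reach -0.94 in C57BL/6J and -0.98 in BALB/cJ at 65 to 70%.

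The medians spread less over distance from the start than over G+C. Members within 1 kb of a start had a median of -0.82 in C57BL/6J, with 507 of 1637 tested called lower (31.0%, against 7.99% of all peaks) and 2 higher, and -0.80 in BALB/cJ, with 505 of 1641 lower (30.8%, against 11.2%) and 16 higher. Of the 121 members over 50 kb away, 23 of 117 tested were called lower and 0 higher in C57BL/6J (19.7% lower), with a median of -0.54. For BALB/cJ these were 28 of 119 (23.5%) and 3, with a median of -0.68.

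Few members were called higher. Both strains shared 10 of the members called higher, which is 76.9% of those in C57BL/6J and 26.3% of those in BALB/cJ. They lay in or near Socs3 (2 peaks), Fosl1, Ascl2, Nrp2, Ssh1, Sirt4, Pde4dip, Ppp1r9b and Anp32a.

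Socs3 encodes the suppressor of cytokine signaling 3, a feedback inhibitor of JAK-STAT signaling. The peak 789 bp downstream of its start had 47.8, 98.5 and 57.3 normalized counts in C57BL/6J LPS libraries, against 15.7, 16.05, 6.50 and 15.96 in C57BL/6J controls, and 47.04 and 63.3 in BALB/cJ LPS libraries, against 11.9, 17.6, 21.5 and 4.05 in BALB/cJ controls. Every LPS library was above every control library of its strain, by a log2 ratio of 2.31 ± 0.42 (SE), adjusted p = 8.70e-05 in C57BL/6J and 2.22 ± 0.46 (SE), adjusted p = 2.71e-04 in BALB/cJ. The second peak, 19893 bp downstream of the start, had 11.2, 29.7 and 48.6 after LPS and 7.54, 9.63, 7.80 and 7.98 in controls of C57BL/6J (log2 ratio 1.91).

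Fosl1 encodes FRA1, a subunit of the AP-1 complex. Its peak 1128 bp downstream of the start had 19.7, 30.6 and 39.8 in C57BL/6J LPS libraries, against 4.64, 8.02, 5.20 and 13.3 in C57BL/6J controls, and 42.7 and 32.5 in BALB/cJ LPS libraries, against 6.59, 10.7, 5.37 and 8.29 in BALB/cJ controls (log2 ratio 2.03 and 2.23). Its sequence holds TGACTCA, the motif that AP-1 itself binds.

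Ascl2, a basic helix-loop-helix factor gene and an imprinted locus, had 30.9, 59.4 and 77.3 in C57BL/6J LPS libraries, against 16.8, 9.63, 16.9 and 11.97 in C57BL/6J controls (log2 ratio 1.99 ± 0.40 (SE), adjusted p = 2.51e-04), and 26.1 and 47.5 in BALB/cJ LPS libraries, against 10.5, 14.6, 5.37 and 4.98 in BALB/cJ controls (log2 ratio 2.17 ± 0.45 (SE), adjusted p = 2.82e-04). Nrp2 encodes neuropilin 2, a receptor for semaphorins and vascular endothelial growth factors. Its peak had 22.5, 33.1 and 41.4 after LPS and 13.3, 8.02, 14.3 and 15.96 in controls of C57BL/6J, and 56.6 and 47.5 after LPS and 14.5, 8.78, 10.7 and 12.1 in controls of BALB/cJ. The groups did not overlap for either gene in either strain. The Nrp2 and the distal Socs3 peak were not called in C57BL/6J without LPS replicate 3.

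Ssh1, a cofilin phosphatase gene, had 29.5, 58.6 and 42.2 after LPS and 15.7, 28.9, 16.9 and 23.9 in controls of C57BL/6J, with a log2 ratio of 1.08, and 48.8 and 43.1 after LPS and 13.2, 15.6, 18.8 and 11.1 in controls of BALB/cJ, with 1.70. Sirt4 encodes a mitochondrial sirtuin, and the peak 7460 bp upstream of it had 58.99, 98.5 and 103 after LPS and 40.00, 24.1, 32.5 and 39.9 in controls of C57BL/6J and 146 and 118 after LPS and 60.7, 56.6, 71.1 and 46.4 in controls of BALB/cJ. Another Sirt4 member, 5661 bp upstream, went the other way. It was called lower in C57BL/6J (log2 ratio -1.94) and in BALB/cJ (-1.49), with and without the correction for G+C. For Pde4dip, a centrosome and Golgi scaffold gene, the log2 ratios were 1.43 and 1.38, for Ppp1r9b, which encodes the phosphatase scaffold spinophilin, 1.54 and 1.36, and for Anp32a, which encodes a nuclear phosphoprotein, 2.18 and 1.39. In C57BL/6J the groups of Ppp1r9b overlapped, since LPS replicate 1 had 18.3 normalized counts, against a highest control of 18.6. In C57BL/6J, Ppp1r9b and Ssh1 were not called without LPS replicate 2, nor Ssh1 without control replicate 1.

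The other members with the largest increases were called in 1 strain. In BALB/cJ the peak 74404 bp upstream of Papss1, which encodes a sulfate donor synthase, had 13.9 and 21.1 after LPS, against 7.91, 1.95, 1.34 and 3.04 in controls (log2 ratio 2.35 ± 0.73 (SE), adjusted p = 0.0116), and 7.02, 6.79 and 7.96 against 4.64, 8.02, 0 and 5.32 in C57BL/6J (log2 ratio 0.71). Yap1, the Hippo pathway coactivator gene, Lcn4 and the kinase scaffold gene Ksr1 had log2 ratios of 2.32, 2.15 and 1.84 in BALB/cJ and 1.09, 1.21 and 1.31 in C57BL/6J. In C57BL/6J the peak 6078 bp upstream of Zfp503 had 19.7, 22.1 and 26.3 after LPS, against 9.28, 11.2, 9.10 and 9.31 in controls (log2 ratio 1.24 ± 0.44 (SE), adjusted p = 0.0337). The calls of Zfp503 and Ksr1 were lost on leaving out any of several libraries, C57BL/6J LPS replicates 2 and 3 and control replicates 1, 3 and 4 for Zfp503 and both BALB/cJ LPS libraries and control replicates 2, 3 and 4 for Ksr1. Papss1 and Lcn4 were not called without BALB/cJ LPS replicate 2, nor Yap1 without either BALB/cJ LPS library or control replicate 4. None of these 5 was called for a difference of the response between strains. With 3 and 2 LPS libraries, a missing call does not show that the responses were alike.

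Of the 41 members higher after LPS in at least 1 strain, 12 (29.3%) held TGACTCA, against 88 of all 2731 members (3.22%) and 0.655% of the members called lower in both strains. The 12 lay nearest to Fosl1, Nrp2, Ppp1r9b, Papss1, Yap1, Ercc1, Dpysl3, Hs3st3b1, Klhdc2, Tmem214, Zfp248 and Gm1968. These 41 had a median of 64.7% G+C, against 71.1% for the 458 lower in both, so that they also differ in base composition.

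**Figure D3:**
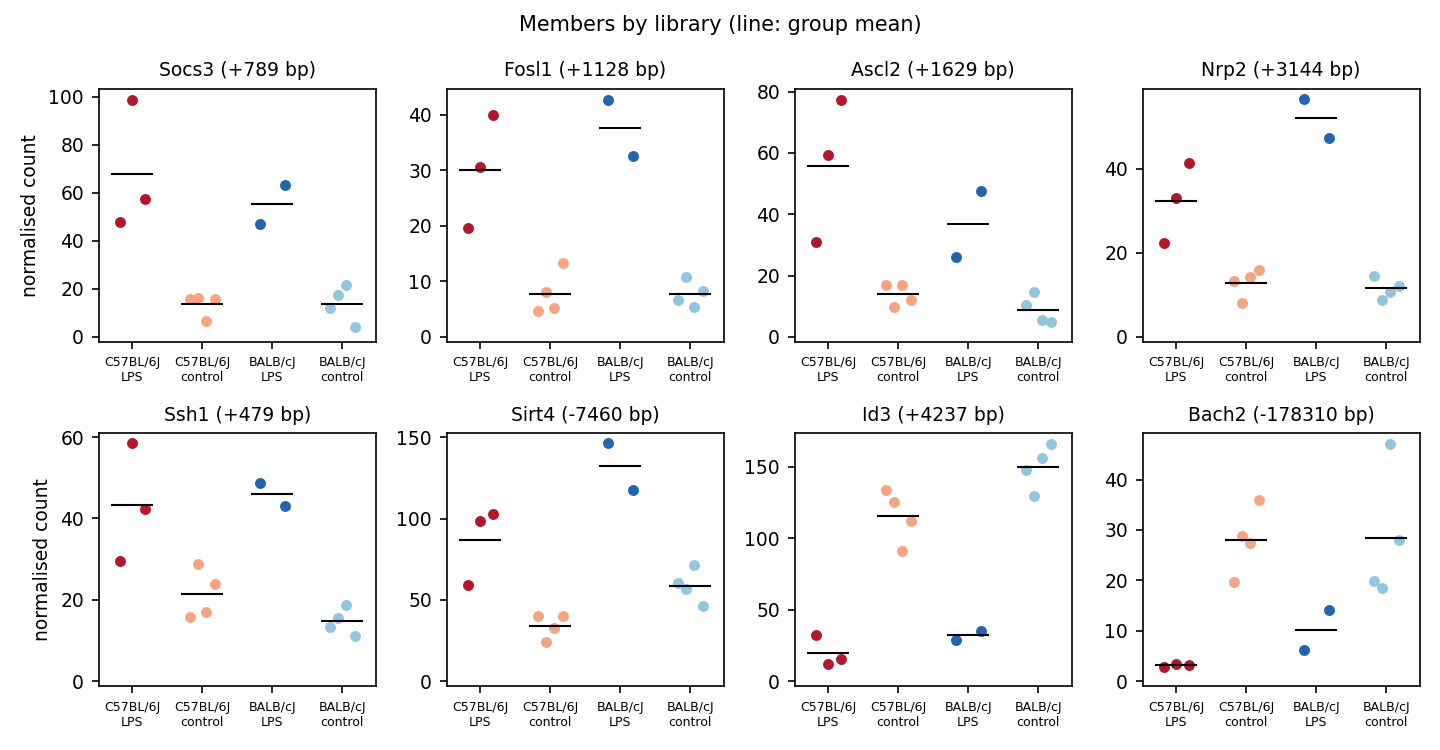
Normalized counts per library (y axis) of 8 CpG island peaks, each panel with C57BL/6J LPS, C57BL/6J control, BALB/cJ LPS and BALB/cJ control from left to right, 1 point per library and a line at the mean. Socs3, Fosl1, Ascl2, Nrp2, Ssh1 and Sirt4 lie higher after LPS in both strains; Id3 and the distal Bach2 peak lie lower.

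Decreases were more numerous. Both strains shared 458 of the members called lower (65.3% of those in C57BL/6J and 60.6% of those in BALB/cJ), and 148 of these were also called lower in both with the correction for G+C. The shared portions, here and for the members called higher, are not set beside those of all peaks and describe the members alone. Of the 148, 101 lay within 1 kb of a start.

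The peak upstream of Zfp991 had 1 of the largest decreases. Zfp991 is a zinc finger gene of a cluster with closely related copies. It had 4.21, 0.849 and 1.59 normalized counts in C57BL/6J LPS libraries, against 50.4, 54.6, 58.5 and 49.2 in C57BL/6J controls (log2 ratio -4.71 ± 1.06 (SE), adjusted p = 0.00388), and 3.48 and 0 in BALB/cJ LPS libraries, against 31.6, 30.2, 49.7 and 1.29 in BALB/cJ controls (log2 ratio -3.78). The deep BALB/cJ control replicate 4 was with the LPS libraries at 1.29 and not with the other controls. The same library had no tag in the peak near Rn4.5s, a repeated small RNA gene, which had 0, 0 and 0 in C57BL/6J LPS libraries, against 30.1, 32.1, 26.01 and 18.6 in C57BL/6J controls, at least 8.76-fold lower when the LPS libraries are set at a floor of 3 tags each, and was not called without LPS replicate 3. With reads of 30 bases, tags of such near-identical copies could have been assigned elsewhere, and both peaks are uncertain.

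Outside such families, Fbl, which encodes fibrillarin, the methyltransferase of ribosomal RNA, had 2.61 and 1.76 in BALB/cJ LPS libraries, against 35.6, 39.01, 61.7 and 48.7 in BALB/cJ controls (log2 ratio -4.35 ± 0.68 (SE), adjusted p = 8.53e-06), and 23.9, 2.55 and 1.59 in C57BL/6J LPS libraries, against 46.4, 60.98, 50.7 and 82.4 in C57BL/6J controls. In C57BL/6J, LPS replicate 1 kept far more of the signal than replicates 2 and 3. Elk3, an ETS factor gene, had 2.81, 0.849 and 0 after LPS, against 11.02, 14.4, 13.01 and 15.96 in controls of C57BL/6J (log2 ratio -3.66 ± 0.73 (SE), adjusted p = 2.70e-04). Matn2 (matrilin 2), Pknox2 (a homeodomain factor), Sobp, Spry2 (a feedback inhibitor of receptor tyrosine kinases) and Sfswap (a splicing regulator) had log2 ratios of -3.73, -3.57, -4.10, -3.56 and -3.43 in C57BL/6J. Of these, Sobp was not called without LPS replicate 2 or 3 and Spry2 not without LPS replicate 2. In BALB/cJ, Sfswap had a log2 ratio of 0.28 and was not called.

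Of the largest decreases in BALB/cJ, 4 rest on 0 tags in both LPS libraries. Mmp17, which encodes a membrane-type matrix metalloproteinase, had 0 and 0 after LPS, against 6.59, 4.88, 18.8 and 7.56 in controls, which is at least 3.60-fold lower with the LPS libraries at 3 tags each. By the same measure Wdr20 was at least 3.46-fold, Dnajc22 at least 2.41-fold and the nuclear receptor gene Nr2f1 at least 2.36-fold lower, and Dnajc22 and Nr2f1 were not called without either LPS library. Mak, a kinase gene of cilia, and Ivns1abp had 0.871 and 0 and 0.871 and 0 in BALB/cJ LPS libraries, against 35.6, 16.6, 22.8 and 13.3 and 22.4, 18.5, 13.4 and 8.48 in BALB/cJ controls. Nat8l, the last of the 8 largest, was not called with the correction for G+C or without LPS replicate 2.

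**Figure D4:**
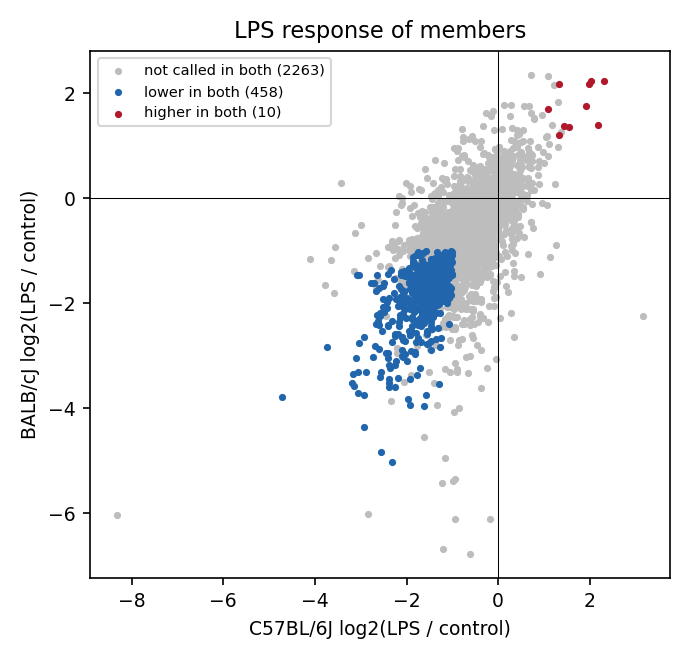
Log2 ratio of LPS over control in C57BL/6J (x axis) and in BALB/cJ (y axis), 1 point per member; 458 members are called lower in both strains, 10 are called higher in both and 2263 are neither. The 2 comparisons share no library.

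Gene lists chosen for the treatment show where the members lie. LPS-inducible cytokine and chemokine genes had no member at all, and genes of the NF-kB pathway had 2. Immediate early genes, which include those of AP-1, EGR, ATF and MAF proteins, had 50 members near 23 genes, of which 18 of 50 tested in C57BL/6J and 19 of 49 in BALB/cJ were called lower and 1 and 1 higher, with medians of -0.85 and -0.94. For this and the lists that follow, the shares called lower in C57BL/6J were 7.99% of all peaks and 26.1% of all members tested, with 11.2% and 27.9% for BALB/cJ. The 1 was Fosl1 in both. With the G+C correction 5 and 8 remained called lower. Fos, an AP-1 gene that is transcribed early after stimulation, had 167, 40.8 and 26.3 at the peak 620 bp into the gene in C57BL/6J LPS libraries, against 290.5, 384, 297 and 263 in C57BL/6J controls, and 27.01 and 24.6 in BALB/cJ LPS libraries, against 225, 331, 149 and 139 in BALB/cJ controls (log2 ratio -2.07 and -3.01). LPS replicate 1 of C57BL/6J again lay nearest to the controls, and in BALB/cJ Fos and Myc were not called without LPS replicate 2. Myc and Mafg, which encodes a small MAF protein, had log2 ratios of -2.41 and -1.93 in C57BL/6J. The BALB/cJ values were -3.05 and -2.60. The peak 178310 bp upstream of Bach2, a transcriptional repressor gene, had 2.81, 3.396 and 3.19 after LPS, against 19.7, 28.9, 27.3 and 35.9 in controls of C57BL/6J, and 6.10 and 14.1 against 19.8, 18.5, 46.98 and 27.9 in BALB/cJ.

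Members near genes of Kupffer cell identity were 18 near 12 genes, 9 called lower in C57BL/6J (of all peaks, 7.99%) and 7 in BALB/cJ (11.2%) with none higher, and medians of -1.11 and -1.28. With the G+C correction 6 and 4 were lower. Id3, a helix-loop-helix inhibitor that Kupffer cells need for their identity, had several peaks, and the one 4237 bp downstream of its start had 32.3, 11.9 and 15.1 in C57BL/6J LPS libraries, against 133, 125, 91.04 and 112 in C57BL/6J controls, and 28.7 and 35.2 in BALB/cJ LPS libraries, against 148, 129.7, 156 and 166 in BALB/cJ controls (log2 ratio -2.64 and -2.23). The peaks 1007 and 3990 bp downstream had -2.53 and -1.60 in C57BL/6J. The BALB/cJ values were -2.52 and -1.97. Id2 and Id1, its relatives, had peaks with log2 ratios of -1.69 (2533 bp upstream) and -1.63 (683 bp downstream) in C57BL/6J. The BALB/cJ values were -1.46 and -1.54. This Id1 peak was not called in BALB/cJ, and the Id1 peak 1049 bp upstream was not called in either strain (-0.32 and -0.28). The first Id1 peak was also not called in C57BL/6J without control replicate 1 or LPS replicate 2 or 3.

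Notch, BMP and TGF-beta genes had 40 members near 27 genes, of which 14 in C57BL/6J (of all peaks, 7.99%) and 17 in BALB/cJ (11.2%) were called lower and 0 and 1 higher. With the correction 8 and 8 were called lower and 1 and 4 higher. The TGF-beta receptor gene Tgfbr2 had 9.83, 16.98 and 9.56 after LPS, against 35.4, 73.8, 24.7 and 45.2 in controls of C57BL/6J, and 7.84 and 13.2 against 26.4, 54.6, 52.3 and 41.7 in BALB/cJ. Tgif1, a repressor of TGF-beta responses, had -2.03 and -2.97. The Notch target Hes1 had 4 members. The peaks 1613 and 1146 bp upstream of its start were called lower in both strains, with log2 ratios of -1.57 and -1.65 for C57BL/6J, whereas BALB/cJ had -2.16 and -1.71. In BALB/cJ the peak 1325 bp downstream was called lower (-2.26) and that 5127 bp downstream higher (1.31), while the C57BL/6J values of -0.92 and 0.09 were not called. With the correction, of these Hes1 calls only the BALB/cJ calls of the peaks 1613 bp upstream (lower) and 5127 bp downstream (higher) remained. No gene of this list was called for a difference of the response between strains, which does not show that the responses were alike.

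Interferon genes had 4 members, of which 3 are reported here. Irf2 and Irgm1 were not called, with log2 ratios of -0.57 and 0.29 in C57BL/6J. The BALB/cJ values were -0.996 and 1.11. Irf5, a factor of the interferon regulatory family, was lower in both strains and remained so with the correction. Irf5 had 28.1, 10.2 and 5.58 in C57BL/6J LPS libraries, against 88.1, 122, 63.7 and 50.5 in C57BL/6J controls, and 7.84 and 17.6 in BALB/cJ LPS libraries, against 52.7, 106, 84.6 and 36.7 in BALB/cJ controls. In both strains every LPS library was below every control.

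The KLF and SP genes, which encode factors that bind GGGCGG-type boxes, had 14 members, 4 lower in C57BL/6J and 7 lower and 1 higher in BALB/cJ. With the correction 0 and 1 were lower. RNA decay and phosphatase feedback genes had 21 members, 2 higher and 5 lower in C57BL/6J and 2 higher and 6 lower in BALB/cJ, and 1 and 0 were lower with the correction; the 2 higher were Socs3 peaks. The 1 KLF member higher in BALB/cJ lay 51833 bp from the start of Klf4. Other Klf4 members, 118798 bp upstream and 1460 and 17566 bp downstream, were called lower in BALB/cJ (log2 ratio -1.29, -1.65 and -1.14). These decreases were not called with the correction. Polycomb, CXXC, TET and DNMT genes had 35 members, 4 lower in C57BL/6J and 8 lower and 2 higher in BALB/cJ, and those higher were near Cbx8 and Phf19. With the correction 2 were lower and 0 higher in C57BL/6J, and 1 was lower and 5 higher in BALB/cJ. Of those lower, Pcgf1, a Polycomb RING finger gene, had -2.58 and -3.40 and was called also with the correction. Developmental regulators had 56 members near 43 genes, 5 of 50 tested lower in C57BL/6J (of all peaks, 7.99%) and 9 of 55 lower in BALB/cJ (11.2%), shares nearer to those of all peaks than to those of the members, with 1 higher in each, which was Ascl2. The imprinted genes had 5 members near 4 genes, of which 1 was higher and 1 lower of 5 tested in C57BL/6J, and 2 were higher and 2 lower of 4 tested in BALB/cJ. Ascl2 was higher in both strains, and the peak 4036 bp upstream of Cdkn1c, a cyclin-dependent kinase inhibitor gene, was lower in both (-1.47 and -1.42). In BALB/cJ the second Cdkn1c peak was called lower at -2.36 and Peg10, an imprinted retrotransposon-derived gene, higher at 1.76, where C57BL/6J had -0.21 and 0.56 without a call. With the correction neither Cdkn1c peak was called in either strain. Ascl2 in both strains and Peg10 in BALB/cJ were still called higher.

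The response was also measured in the first-generation hybrid, in a separate peak table, where the 9 libraries held 6.82 to 25.9 M tags. Of the members, 1903 matched a hybrid peak that covered at least 50% of it and was covered by it to the same extent, and 1902 were tested. The median log2 ratio of LPS over control was -0.11, with 86 called lower (4.52%, against 10.6% of all hybrid peaks) and 58 higher (3.05%, against 16.3%). The members held 2.42 to 2.53% of the tags in CB6F1/J LPS libraries, against 2.73 to 2.86% in CB6F1/J controls. In the control libraries, unlike the LPS libraries, the tags counted as all tags did not include the perfectly mapped tags in many peaks, so that the log2 ratios named below are given from both; with the perfectly mapped tags 109 members were called higher (of all hybrid peaks, 14.3%) and 214 lower (10.3%).

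Of the 8 members called higher in C57BL/6J that matched a hybrid peak, 6 were called higher in the hybrid, and 8 with perfectly mapped tags; of the 442 called lower, 25 were called lower with all tags and 135 with perfectly mapped tags. In BALB/cJ these were 15 of 33 and 22, and 33 of 478 and 140. The median log2 ratio in the hybrid was 1.97 for the members higher in C57BL/6J and -0.34 for those lower. For the members called in BALB/cJ these medians were 0.94 and -0.28.

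Fosl1 had 154, 141, 107, 135 and 156 normalized counts in CB6F1/J LPS libraries, against 37.2, 24.95, 8.24 and 21.6 in CB6F1/J controls (log2 ratio 2.63 ± 0.29 (SE), adjusted p = 5.11e-09). With perfectly mapped tags Fosl1 had 171, 159, 114, 148 and 162 after LPS, against 73.4, 20.95, 34.6 and 51.7 in controls, and a log2 ratio of 1.71. Ascl2 had 195, 149.9, 202, 172 and 230.2 against 42.5, 32.3, 36.6 and 12.6 (log2 ratio 2.57 ± 0.25 (SE), adjusted p = 3.60e-10), and 2.82 with perfectly mapped tags. By either count both were higher in every LPS library than in any control. Ppp1r9b, Ssh1 and the Sirt4 peak 7460 bp upstream had log2 ratios of 2.56, 2.03 and 1.91, and with perfectly mapped tags 2.28, 1.65 and 2.12. Bach2, at its distal peak, and the Id1 peak 683 bp downstream of the start were called lower in the hybrid, with log2 ratios of -1.28 and -1.37 (-1.42 and -1.69 with perfectly mapped tags), while Zfp991 was not called by either count, with 127, 143, 102, 131 and 147 in CB6F1/J LPS libraries, against 149, 107, 122 and 128 in CB6F1/J controls from all tags. Of the 148 members lower in both strains with and without the correction, 87 matched a tested hybrid peak, 65 of these had a log2 ratio below 0, 5 were called lower with all tags and 55 with perfectly mapped tags.

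Controls of the 3 strains were compared. The C57BL/6J control libraries differed from the others in more than strain. Their fragment lengths were 34, against 108 to 172 in BALB/cJ and A/J controls. They held 0 tags in mitochondrial peaks, against 19.9 to 26.9% of peak tags in the other controls. Strain and these differences between libraries cannot be told apart in comparisons with C57BL/6J. Few members were called. Between C57BL/6J and BALB/cJ controls, 49 of 2068 tested members were higher and 21 lower, against 3.14% higher and 4.16% lower of all peaks (7.29% in either direction). Between A/J and BALB/cJ, of 2041 tested, 12 were higher (1.54% of all peaks) and 16 lower (3.03%, and 4.57% in either direction). Between A/J and C57BL/6J, of 2091 tested, 25 were higher (3.29% of all peaks) and 48 lower (3.88%, and 7.17% in either direction). Without C57BL/6J control replicate 2 the first comparison gave 44 calls, against 70 with it. In all, 114 members were called in at least 1 of the 3 comparisons and 3 in all 3. In the mouse, a peak without tags can be closed chromatin or sequence that a strain lacks or that reads cannot be placed on, and these cannot be told apart.

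The clearest single member was the peak in an intron of Anp32a, which was called in each pair of strains. It had 143, 152, 189 and 119 normalized counts in A/J, 3.48, 6.42, 2.60 and 5.32 in C57BL/6J, whereas BALB/cJ controls had 32.96, 32.2, 24.2 and 38.3. None of the ranges overlapped, and the log2 ratio was 5.14 ± 0.37 (SE), adjusted p = 2.02e-13 for A/J over C57BL/6J, 2.20 ± 0.28 (SE), adjusted p = 2.38e-07 for A/J over BALB/cJ and -2.94 ± 0.40 (SE), adjusted p = 4.17e-07 for C57BL/6J over BALB/cJ. It was also among the 10 members higher after LPS in both strains, with 11.2, 11.04 and 33.5 in C57BL/6J LPS libraries and 69.7 and 103 in BALB/cJ LPS libraries, and C57BL/6J remained below BALB/cJ after LPS (log2 ratio -2.16). The strains stood in the same order in both treatments.

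H2-Bl is a class I-like gene of the major histocompatibility complex, a region of near-identical copies and strain haplotypes. Its peak had 74.00, 56.9, 56.97 and 62.6 in A/J, 55.7, 64.2, 37.7 and 39.9 in C57BL/6J, whereas BALB/cJ controls had 0, 0, 0 and 0.0921. It had 70.2, 39.1 and 72.5 in C57BL/6J LPS libraries, against 0 in both BALB/cJ LPS libraries (at least 23.1-fold higher in C57BL/6J, with each BALB/cJ library set at 3 tags). The peak near Mir7094-1, chosen after its values were seen, had 73.6, 64.2, 78.04 and 63.8 in C57BL/6J controls and 0 in all BALB/cJ and A/J libraries, at least 25.01-fold higher than BALB/cJ with each control set at 3 tags. Zfp947 followed the same strain pattern with 0, 8.75, 6.10 and 0 in A/J, 59.1, 65.8, 50.7 and 41.2 in C57BL/6J, whereas BALB/cJ controls had 3.96, 1.95, 6.71 and 5.90. H2-Bl and Zfp947 belong to families of close copies, and these values are uncertain.

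Other genes differed too. Trmo, which encodes a tRNA methyltransferase, had 33.9, 38.3, 32.6 and 32.9 in A/J, 148, 156, 71.5 and 130.3 in C57BL/6J, whereas BALB/cJ controls had 21.1, 18.5, 20.1 and 23.2 (C57BL/6J over BALB/cJ 2.58 ± 0.28 (SE), adjusted p = 2.72e-09). The chemokine gene Ccl27a, which has a close copy in the mouse and is uncertain for that reason, had 4.63, 10.9, 20.3 and 17.2, 84.6, 123.6, 127 and 112 and 26.4, 20.5, 29.5 and 16.95 in the same groups (A/J over C57BL/6J -3.11 ± 0.33 (SE), adjusted p = 2.77e-09). The DNA repair gene Ercc1 had a peak 2891 bp upstream with 28.99, 33.7, 36.4 and 37.2 in C57BL/6J controls, against 11.9, 11.7, 12.1 and 5.44 in BALB/cJ controls. Lower in C57BL/6J were a peak 125987 bp upstream of Ywhaq, a 14-3-3 gene, with 15.7, 9.63, 20.8 and 18.6 in C57BL/6J controls, against 65.9, 49.7, 95.3 and 65.2 in BALB/cJ controls, and a peak 1267 bp upstream of Bhlhe41, a helix-loop-helix repressor gene that macrophages of several tissues express, with 17.97, 22.5, 22.1 and 27.9 against 73.8, 58.5, 81.9 and 91.4.

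A/J stood apart at the peak 6166 bp upstream of Klf9, a zinc finger factor gene that glucocorticoids induce, with 72.5, 53.6, 40.7 and 48.5 in A/J, 154, 225, 205 and 158 in C57BL/6J, whereas BALB/cJ controls had 166, 215, 239 and 184 (A/J over BALB/cJ -1.88 ± 0.20 (SE), adjusted p = 4.96e-09). Every A/J library was below every library of the other controls. At the peak near Il12rb1, which encodes a receptor chain for interleukins 12 and 23, BALB/cJ stood above both others, with 29.3, 28.4, 16.3 and 17.2 in A/J, 41.2, 35.3, 14.3 and 25.3 in C57BL/6J, whereas BALB/cJ controls had 81.7, 93.6, 57.7 and 74.2. The peak 21972 bp upstream of Il21r, the interleukin 21 receptor gene, had 49.3, 51.4, 54.9 and 15.6, 45.8, 41.7, 44.2 and 41.2 and 79.1, 119.9, 126 and 123 in the same order, with log2 ratios of -1.39 (A/J over BALB/cJ) and -1.37 (C57BL/6J over BALB/cJ).

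Further members of the largest A/J differences were higher for Rdm1, a DNA repair gene, at 2.05, Bahcc1 at 2.00 and Zfp868 at 2.29 over BALB/cJ, and for Elavl4, an RNA-binding protein gene of neurons, at 2.44 and Spry1 at 1.96 over C57BL/6J. They were lower for Id4 at -1.55 and Uap1l1 at -1.51 over BALB/cJ, and for Cyth1, an ARF exchange factor gene, at -1.95 and Fbxo46 at -1.90 over C57BL/6J. Rdm1 was not called over BALB/cJ without BALB/cJ control replicate 4, Id4 not without A/J replicate 2 or 3, and Fbxo46 not without A/J replicate 3 or 4 or C57BL/6J control replicate 1 or 2.

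**Figure D5:**
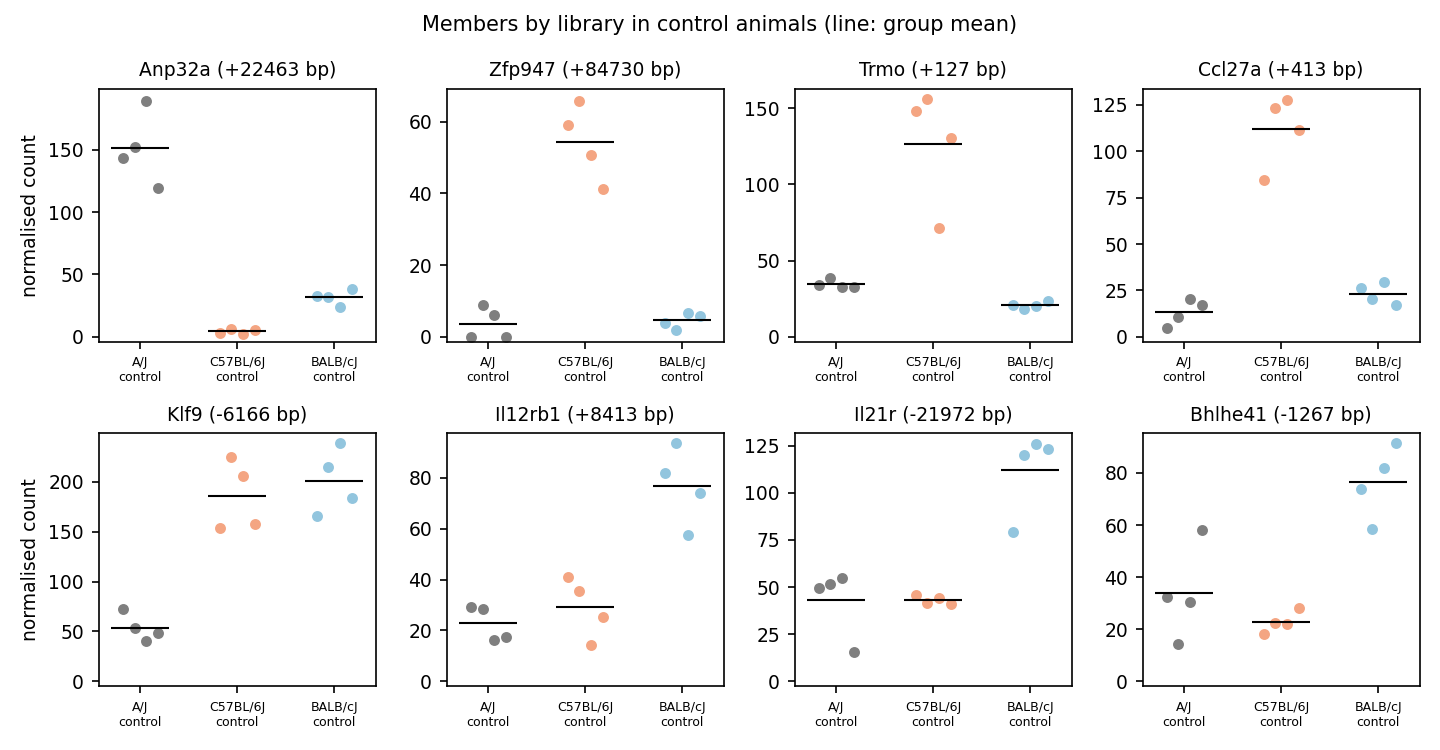
Normalized counts per library (y axis) of 8 CpG island peaks in A/J, C57BL/6J and BALB/cJ controls from left to right, 1 point per library and a line at the mean. Anp32a lies at 119 to 189 in A/J, 2.60 to 6.42 in C57BL/6J and 24.2 to 38.3 in BALB/cJ, and the Klf9 peak lies lowest in A/J.

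After LPS, of 1561 members tested, 30 were higher in C57BL/6J than in BALB/cJ (2.43% of all peaks) and 13 lower (2.86%, and 5.28% in either direction), and 18 were called in all without BALB/cJ LPS replicate 2. Of the 70 members called between the controls, 58 were tested after LPS and 19 were called, all 19 in the same direction. The control and LPS libraries of these comparisons are different libraries, and after LPS the strain cannot be told apart from the date in the library names. After LPS the peak 30639 bp upstream of Cdon, a hedgehog coreceptor gene, had 12.6, 10.2 and 13.5 in C57BL/6J, against 61.9 and 53.6 in BALB/cJ. The natural killer receptor gene Klrb1c had a peak with 33.7, 28.9 and 19.1 in C57BL/6J, against 4.36 and 6.16 in BALB/cJ (log2 ratio 2.33 ± 0.50 (SE), adjusted p = 0.00157).

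The test of the strain difference in the LPS response itself called 1 of 2712 members, higher in C57BL/6J, and none lower (of all peaks 0.105% were called higher and 0.0421% lower, 0.147% in either direction), and 179 members had an unadjusted p under 0.05. The 1 lay 2985 bp downstream of the start of 9530026P05Rik, with 4.21, 0 and 11.2 in C57BL/6J LPS libraries, against 0.580, 0, 0 and 1.33 in C57BL/6J controls, and 12.2 and 18.5 in BALB/cJ LPS libraries, against 58.02, 49.7, 96.6 and 85.6 in BALB/cJ controls. The C57BL/6J levels lay near 0 in most libraries, the C57BL/6J groups overlapped, and the difference of log2 ratios was 5.41 ± 1.10 (SE), adjusted p = 0.0173. This gene was chosen after its values were seen. The call held with the correction for G+C, but it was lost without C57BL/6J control replicate 1 or 3, C57BL/6J LPS replicate 3, which gave 3.80, or either BALB/cJ LPS library.

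In the hybrid, tags that span a variant show which parent's chromosome they came from, and both alleles were measured in the same nuclei and library. Only 136 members in controls and 139 after LPS held enough such tags, with allele libraries of 0.269 to 0.581 M tags. In controls 4 were higher on the C57BL/6J allele (6.38% of all tested peaks were) and 1 on the BALB/cJ allele (5.55%), which together is 3.68% of members tested, against 11.9% of all peaks tested. After LPS 7 were higher on the C57BL/6J allele (10.8% of all) and 3 on the BALB/cJ allele (8.59%), together 7.19% of members tested, against 19.4% of all. Without CB6F1/J control replicate 3 the controls gave 3. In all, 12 distinct members were called, 3 of them in both groups.

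Of the 12, 5 were called in the same direction between the inbred controls. The peak of the Il21r locus had 44.1, 25.8, 27.5 and 62.2 normalized counts from the C57BL/6J allele and 139, 83.8, 69.8 and 105 from the BALB/cJ allele in 4 controls (log2 ratio -1.35 ± 0.22 (SE), adjusted p = 7.08e-04), and the inbred controls had 45.8, 41.7, 44.2 and 41.2 in C57BL/6J, whereas BALB/cJ controls had 79.1, 119.9, 126 and 123. After LPS the log2 ratio between the alleles was 0.12 and was not called. Between the inbred strains after LPS the log2 ratio at this peak was -1.39 and was called. Zfp947 was tested in LPS libraries alone, with 44.3, 32.9, 31.9, 48.4 and 15.8 from the C57BL/6J allele and 7.89, 4.26, 1.22, 2.63 and 2.06 from the BALB/cJ allele (log2 ratio 3.24 ± 0.39 (SE), adjusted p = 4.13e-05), as the parents had stood. Since Zfp947 belongs to a family of close copies, its allele values are uncertain too.

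The peak 9369 bp downstream of the start of 4930444G20Rik was called in both groups, with 229, 309, 139 and 224 from the C57BL/6J allele and 91.7, 82.7, 67.7 and 118 from the BALB/cJ allele in controls (log2 ratio 1.29 ± 0.17 (SE), adjusted p = 1.70e-04), and a log2 ratio of 2.10 ± 0.11 (SE), adjusted p = 8.31e-08 after LPS. Spice1, a centriole gene, and H2-K1, a class I gene, were called in both groups without an inbred call. H2-K1, like H2-Bl, lies in the major histocompatibility complex with its near-identical copies, and its values are uncertain. For Spice1 the C57BL/6J allele had 38.3, 34.9, 35.6, 35.4 and 41.1 and the BALB/cJ allele 1.75, 7.45, 3.66, 4.38 and 0 after LPS. Sept11, a septin gene, had 7.67, 15.4, 20.9, 18.1 and 20.03 from the C57BL/6J allele and 45.6, 56.4, 47.5, 40.3 and 10.3 from the BALB/cJ allele after LPS, lower on the C57BL/6J allele in 4 of 5 libraries, and was also lower in C57BL/6J after LPS between the inbred strains (log2 ratio -2.08, a call lost without any of 4 of the 5 LPS libraries). The allele call of Sept11 (adjusted p = 0.0306) was made in 4 of 8 alternatives. Mir6358, the last of the 5, had 1.04 ± 0.25 (SE), adjusted p = 0.00681. Nemf, E030018B13Rik, Gpat3, Rnf34 and Bst1 were called in 1 group each and not between the inbred strains, and the calls were made in 4 of 7 alternatives for Bst1 and 5 of 8 each for Rnf34 and E030018B13Rik.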

How the data were processed

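ATAC-seq libraries of sorted Kupffer cells were assigned to 7 groups by their labels. The authors trimmed reads to 30 bases, aligned them with Bowtie2 to mm10 or to strain pseudogenomes shifted back to mm10, and called reproducible peaks with HOMER and IDR. Versions are not given in the sources used here. The deposited counts, whole numbers in LPS libraries, and expected counts with 0.5 steps (rounded up here) in controls and hybrids, matched tags in the 200-bp peak (0.921 to 1.00 of HOMER's normalized peak signal, as deposited) although the methods state 1000-bp windows.

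Counts of 96238 nuclear peaks from all 17 inbred libraries entered 1 edgeR 4.0.16 quasi-likelihood fit (R 4.3.3, TMM, robust) with a mean per group. Hybrid peaks and allele tags were fitted separately, alleles with the animal as a term. A call is a Benjamini-Hochberg adjusted p under 0.05 over all peaks tested and an absolute log2 ratio over 1, for peaks with a mean normalized count over 4 (LPS response) or 16 (strains and alleles). The correction for G+C added an offset over 20 bins of window G+C. Alternatives were DESeq2 1.42.0, other size factors and minimum counts, thinning, the replicate number as a block and leaving out each library. Named members were the largest called changes each way whose groups did not overlap, the leading members of each gene list, the 5 highest and every called allele; others are said to be chosen after their values were seen. Members, lists and rules were chosen with earlier results of these data known. Sequences were read from GRCm38.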

Additional observations from a re-analysis of the deposited data

Results flagged for a closer look

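Among named members, 85 groups of 4 libraries were examined for a library far from its group, and 8 were set apart, where chance gives about 1 in 20. The Socs3 peak 789 bp downstream of its start had 6.50 normalized counts in C57BL/6J control replicate 3, against 15.7 to 16.05 in the other controls. The Zfp503 peak had 11.2 in C57BL/6J control replicate 2, against 9.10 to 9.31, and Spry2 had 17.3 in C57BL/6J control replicate 4, against 5.20 to 6.42. In BALB/cJ controls, H2-Bl had 0.0921 in replicate 4, against 0 in the others. Replicate 4 held 47.2 M tags, against 3.15 to 4.58 M in the others, so that a value this near 0 could be seen only there. Ercc1 had 5.44 in BALB/cJ control replicate 4, against 11.7 to 12.1, and Il21r had 79.1 in BALB/cJ control replicate 1, against 119.9 to 126. In A/J controls, Zfp868 had 46.0 in replicate 2, against 20.0 to 23.5, and Il21r had 15.6 in replicate 4, against 49.3 to 54.9. A difference between strains in the LPS response was set apart for 9530026P05Rik, at 5.41 on the log2 scale by the interaction test. The causes were not tested.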

How the results depend on the processing

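No result of the inbred or allele comparisons named in the text reversed its direction under an alternative. In the hybrid, 10 of the 144 called members had the opposite sign with perfectly mapped tags, and 1 of them, Gas2l1, was called lower with all tags (-1.17) and higher with perfectly mapped tags (1.10). A minimum mean count of 32, which leaves fewer peaks to test, gave 356 called members for C57BL/6J LPS (714 as reported), 416 for BALB/cJ LPS (794), 38 for C57BL/6J over BALB/cJ controls (70), 14 for A/J over BALB/cJ (28), 39 for A/J over C57BL/6J (73), 23 for C57BL/6J over BALB/cJ after LPS (43) and 0 for the strain difference in response (1). The correction for window G+C gave 313 and 399 for LPS in C57BL/6J and BALB/cJ, that on the peak bases 311 and 413 and that with the replicate block 315 and 407. Without a fold threshold the strain comparisons, in the order above, gave 146, 47, 133 and 78, and thinned to 1 depth 43, 17, 48 and 25. After LPS, C57BL/6J over BALB/cJ gave 72 with the replicate block and 25 with only the compared groups. The strain difference in response gave 2 with RLE factors, 4 with the block, 4 with the block and G+C, 2 with only the compared groups and 3 with DESeq2. In the hybrid (144), library totals gave 276 and perfectly mapped tags 323. Leaving out 1 library gave 468 to 785 for LPS in C57BL/6J (lowest without C57BL/6J LPS replicate 3), 482 to 810 in BALB/cJ (lowest without LPS replicate 2), 44 to 80, 23 to 35, 55 to 69 and 18 to 49 for the strain comparisons (44 without C57BL/6J control replicate 2, 18 without BALB/cJ LPS replicate 2), 0 to 2 for the difference in response, 136 to 179 in the hybrid, 3 to 5 for alleles in controls (3 without replicate 3) and 7 to 11 after LPS. The labels do not say whether same-numbered libraries share more than a number. Correlations of their deviations from the group mean were -0.097 to 0.0902 between LPS and control libraries of a strain. Between controls of different strains they were all above 0, at 0.0538 to 0.375, with 0.375 and 0.360 for replicates 2 and 4 of A/J and BALB/cJ. A shared batch was not tested. The replicate block otherwise gave 772 and 829 for LPS and 75, 32 and 77 for the control strains, 141 in the hybrid, and without the animal block 5 and 11 for alleles. Library totals moved the median of all peaks to 0.07 (C57BL/6J) and 0.06 (BALB/cJ), and to -0.39 in the hybrid. Of 105 named results, 65 kept their call in every alternative and 13 lost it with the G+C correction. The causes of these changes were not tested. Depth limits the members of few tags, such as those at 0 in BALB/cJ LPS libraries.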

Other observations

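Some CpG island peaks were called in the hybrid and, but for Nr4a2, in neither inbred strain. They were chosen after their values were seen, and the difference from the inbred strains was not tested. Gadd45b, a stress-response gene, had 864, 812, 818, 751 and 813 normalized counts in CB6F1/J LPS libraries, against 92.99, 225, 126 and 88.1 in CB6F1/J controls (log2 ratio 2.61 ± 0.20 (SE), adjusted p = 1.75e-12, and 1.67 with perfectly mapped tags), while the log2 ratio was -0.20 in C57BL/6J and 0.57 in BALB/cJ. Brd2, a bromodomain gene, and Hk2, a hexokinase gene, had 2.39 and 2.04 in the hybrid (1.15 and 1.59 with perfectly mapped tags), and the peaks 2854 and 1858 bp downstream of the start of Kdm6b 2.06 and 1.55 (1.53 and 1.02), where C57BL/6J had 0.24 and 0.18 and BALB/cJ had 0.54 and 0.28. Lower in the hybrid were a peak 147124 bp from the start of Meis1, a homeodomain factor gene, at -2.39, and Nr4a2, an orphan nuclear receptor gene, at -1.74, which was also called lower in both inbred strains. Of these, Meis1 was not called with perfectly mapped tags.

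The reproducible peak lists of the inbred groups each held most members, with 1909 in C57BL/6J LPS, 1976 in C57BL/6J control, 1645 in BALB/cJ LPS, 2276 in BALB/cJ control and 2026 in A/J control. The deep BALB/cJ control replicate 4 belongs to the group with the longest list.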
